A study of Mus musculus with 8 samples.

Results

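Myeloid C-type lectin receptors are membrane proteins of macrophages, monocytes, dendritic cells and neutrophils that bind sugars, glycolipids and products of damaged cells. Some are coupled to adaptor chains (Fcer1g, Tyrobp) that carry an activating motif and pass the signal through the kinase Syk and the scaffold Card9 to NF-kB and to cytokine genes. Others carry an inhibitory motif of their own that recruits phosphatases such as Ptpn6. Macrophages are scarce in a healthy arterial wall and collect in atherosclerotic plaques, which mice without apolipoprotein E form spontaneously because they clear lipoprotein remnants poorly. A list of 10 such receptor genes was taken, namely Clec4e, Clec4d, Clec4n, Clec7a, Clec5a, Clec4a1, Clec4a2, Clec4a3, Clec12a and Clec10a. These genes were selected on measured values of the same comparison that is described here, so their differences between genotypes are a description: calls are counted beside those over all genes, with no p-value and no inference about the receptors. Of the 10, 9 were analysed among the 21859 gene rows of the count files, and all 9 were among the 15077 genes that passed the filter on low counts. Clec4e and Clec4d had at most 2 and 6 read pairs in any WT aorta and passed it only through the ApoE-/- aortas. Genes this low in WT aortas could thus be tested only if they were higher in ApoE-/- aortas. Clec7a, the beta-glucan receptor Dectin-1, was not analysed here.

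The samples were total aortas of 4 ApoE knockout (ApoE-/-) and 4 wild-type (WT) mice, male, 40 weeks old and kept on a normal diet, with 1 RNA library per mouse. The knockout is present in every cell of the animal, and plaque, media and adventitia of the aorta were not separated. Read pairs counted on genes numbered 23240995 to 23940156 in ApoE-/- and 18375898 to 21664598 in WT aortas. These were 32.3% to 35.6% of all pairs in the files in ApoE-/- and 27.9% to 30.2% in WT aortas, without overlap, and the part of this difference in the results was not tested. Levels are given as CPM, the share of a library's counted pairs scaled with edgeR's TMM factors. Apoe itself was at 14.7 to 36.3 CPM in ApoE-/- and 536 to 857 CPM in WT aortas, so no library went against its label. Markers of smooth muscle, the main cell of the arterial media, summed to 5040 to 20800 CPM in ApoE-/- and 11200 to 21000 CPM in WT aortas. ApoE-/- replicate 1 stood apart from the others, with the lowest smooth muscle sum and with 3750 CPM for sympathetic neuron genes, against 175 to 717 CPM in WT. Its correlations with the other ApoE-/- libraries across genes were 0.849 to 0.903, against 0.951 to 0.971 among those 3. Cardiac muscle markers summed to 160 to 342 CPM in ApoE-/- and 415 to 718 CPM in WT aortas, and 8 of the 9 were lower in every ApoE-/- aorta. The exception, Ryr2, at means of 235 and 238 CPM, made up most of the ApoE-/- sum, so the sums understate the difference in the other 8. The part of these differences in the results below was not tested.

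All 9 receptors had a higher mean in ApoE-/- than in WT aortas, with log2 fold changes from 0.66 to 3.93 and a median of 1.88, beside a median of 0.0474 over all genes tested. For 6 of them, Clec4e, Clec4d, Clec4n, Clec5a, Clec4a3 and Clec12a, the lowest ApoE-/- aorta lay above the highest WT aorta, as it did for 5.41% of all genes tested. edgeR's quasi-likelihood test, adjusted over all genes, called 1 of the 9, Clec4e, as higher, beside 0.371% of all genes called higher and 0.464% called in either direction. DESeq2 called 5 of the 9 (Clec4e, Clec4d, Clec4n, Clec5a and Clec12a) as higher, beside 2.84% of all genes called higher. edgeR without ApoE-/- replicate 1 called the same 5, beside 2.75% of all genes called higher. Without ApoE-/- replicate 3, or without any 1 of the WT aortas, edgeR called none of the 9, but also only 0% to 0.0131% of all genes. With the replicate number as a block, it called none of the 9 and 0.0133% of all genes. Because the genes were chosen by this contrast, nothing is read from these counts. The receptors coupled to Fcer1g had the highest fold changes (2.55 to 3.93), followed by Clec5a and Clec12a, while Clec4a1, Clec4a2, Clec4a3 and Clec10a lay between 0.66 and 1.11. In bulk samples such as these, fewer cells of a type and less RNA per cell cannot be told apart.

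Clec4e encodes Mincle, a receptor for the mycobacterial cord factor and for a protein released by dying cells, which signals through Fcer1g. In ApoE-/- replicates 1 to 4 it was at 1.10, 1.14, 1.31 and 1.95 CPM, from 27, 26, 30 and 45 read pairs. In WT replicates 1 to 4 it was at 0.0918, 0.0936, 0.0554 and 0.0957 CPM, from 2, 2, 1 and 2 read pairs. The genotypes did not overlap, and the ApoE-/- aortas lay close together, the highest being 1.78 times the lowest. The means were 1.37 ± 0.397 and 0.0841 ± 0.0192 CPM (SD, n = 4 each), a log2 fold change of 3.93 (SE 0.34). With 128 read pairs in ApoE-/- and 7 in WT aortas, the ratio of the summed counts, scaled for depth, was 16.1, with an exact 95% interval of 7.57 to 40.7. Such intervals cover counting error only. The gene lies on chromosome 6 from 123281789 to 123289870 on the minus strand (GRCm38).

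Clec4d encodes MCL, which forms a receptor complex with Mincle at the cell surface. Its ApoE-/- levels were 0.812, 2.01, 2.57 and 8.16 CPM (20, 46, 59 and 188 read pairs), and its WT levels were 0.138, 0.234, 0.222 and 0.287 CPM (3, 5, 4 and 6 read pairs). All ApoE-/- aortas lay above all WT aortas, but they were spread widely, replicate 4 being 10.1 times replicate 1. The means were 3.39 ± 3.26 and 0.220 ± 0.0619 CPM (SD, n = 4 each), with a log2 fold change of 3.91 (SE 0.75) that came to 3.00 without ApoE-/- replicate 4. The ratio of the summed counts, 313 against 18 read pairs, was 15.3 when scaled for depth (exact 95% interval 9.50 to 26.1). The standard error of Clec4d was thus larger than that of Clec4e at nearly the same fold change.

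Clec4n encodes Dectin-2, a receptor for fungal mannans that also pairs with Fcer1g. It was at 1.91, 2.27, 2.44 and 8.07 CPM in ApoE-/- aortas and at 1.01, 0.655, 0.388 and 0.431 CPM in WT aortas. The genotypes did not overlap, and ApoE-/- replicate 4 again stood far above the other ApoE-/- aortas. Its log2 fold change was 2.55 (SE 0.58), and 1.81 without that aorta.

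Clec5a encodes MDL-1, a receptor that lacks a signalling motif of its own and pairs with the adaptors Tyrobp (DAP12) and Hcst (DAP10). It was at 1.38, 3.37, 4.49 and 6.42 CPM in ApoE-/- aortas and at 0.780, 0.983, 0.997 and 0.814 CPM in WT aortas. The WT aortas lay within a narrow band (0.894 ± 0.113 CPM, SD, n = 4), and the lowest ApoE-/- aorta, replicate 1, was close above it. A log2 fold change of 2.12 (SE 0.44) was fitted for Clec5a. The gene lies apart from the lectin clusters, on chromosome 6 from 40574894 to 40585821 on the minus strand.

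Clec12a encodes an inhibitory receptor of myeloid cells that senses uric acid crystals of dead cells. It was at 5.15, 5.12, 7.14 and 12.9 CPM in ApoE-/- aortas and at 2.57, 2.71, 1.66 and 1.24 CPM in WT aortas. No WT aorta reached the lowest ApoE-/- aorta, and the means were 7.58 ± 3.67 and 2.05 ± 0.710 CPM (SD, n = 4 each). The log2 fold change was 1.88 (SE 0.39), the median of the receptors. It lies on chromosome 6 from 129342691 to 129365303 on the plus strand.

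Clec4a2 encodes DCIR, a receptor with an inhibitory motif, and Clec4a1 and Clec4a3 are its paralogs. Clec4a2 was at 1.70, 2.10, 2.40 and 6.99 CPM in ApoE-/- and at 2.66, 1.59, 0.942 and 1.58 CPM in WT aortas. The genotypes overlapped, since WT replicate 1 lay above 3 of the 4 ApoE-/- aortas. Its log2 fold change of 0.95 (SE 0.52) came to 0.28 without ApoE-/- replicate 4. Reads of this gene are less certain, since 6.83% of the 50-base stretches of its exons also occur in other genes, Clec4a4 and Clec4b1 among them.

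Clec4a1 was at 3.37, 3.85, 4.14 and 8.03 CPM in ApoE-/- and at 4.22, 2.95, 2.27 and 2.82 CPM in WT aortas. It had the smallest log2 fold change of the receptors, 0.66 (SE 0.33), or 0.30 without ApoE-/- replicate 4, and its genotypes overlapped. Clec4a3 was at 3.41, 3.80, 2.74 and 8.94 CPM in ApoE-/- and at 2.57, 1.92, 2.05 and 2.20 CPM in WT aortas. Its genotypes did not overlap, but ApoE-/- replicate 3 was only just above WT replicate 1. For Clec4a3 the log2 fold change was 1.11 (SE 0.38), and 0.60 without ApoE-/- replicate 4.

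Clec10a encodes MGL1, a macrophage and dendritic cell receptor for terminal galactose and N-acetylgalactosamine, and lies on chromosome 11 from 70156197 to 70170834 on the plus strand. It was at 10.6, 13.9, 8.67 and 30.9 CPM in ApoE-/- and at 10.4, 6.79, 7.87 and 9.0 CPM in WT aortas. The genotypes overlapped, since ApoE-/- replicate 3 lay within the range of the WT aortas, and replicate 1 was just above it. The log2 fold change was 0.91 (SE 0.39), and 0.38 without ApoE-/- replicate 4. Of the 50-base stretches of its exons 9.02% also occur in other genes, the neighbouring paralog Mgl2 among them.

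**Figure D1:**
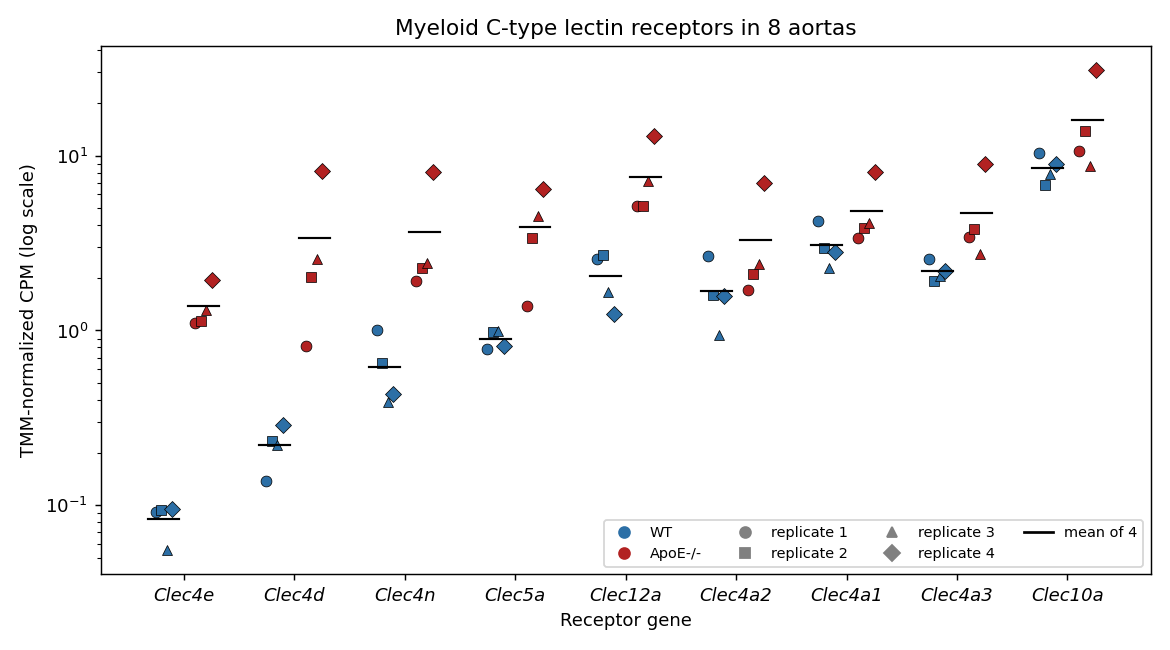
Level of each receptor gene in TMM-normalized CPM on a log axis, with 1 symbol per aorta, WT in blue and ApoE-/- in red, a shape for each replicate number and a line at the mean of 4. The red and blue symbols are separate for Clec4e, Clec4d, Clec4n, Clec5a, Clec12a and Clec4a3, and ApoE-/- replicate 4 is the highest symbol for all 9 genes.

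The aortas differed among themselves in a way that ran through the whole group of genes. ApoE-/- replicate 4 was the highest ApoE-/- aorta for all 9 receptors, and replicate 1 the lowest for 6. Summed over the 9, the level was 29.4, 37.6, 35.9 and 92.4 CPM in ApoE-/- and 24.4, 17.9, 16.5 and 18.5 CPM in WT aortas, so the sums of the genotypes did not overlap. The 15 macrophage markers moved with it: their geometric mean was 26.4, 41.5, 50.8 and 87.4 CPM in ApoE-/- and 17.5, 15.3, 12.7 and 15.6 CPM in WT aortas. Within the ApoE-/- aortas, Clec4e varied least (1.78 times from lowest to highest) and Clec4d most. Among the fits without 1 aorta, leaving out ApoE-/- replicate 4 gave the lowest fold change of all 9 receptors, and none of the 144 fold changes recomputed under 16 alternatives turned sign.

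**Figure D2:**
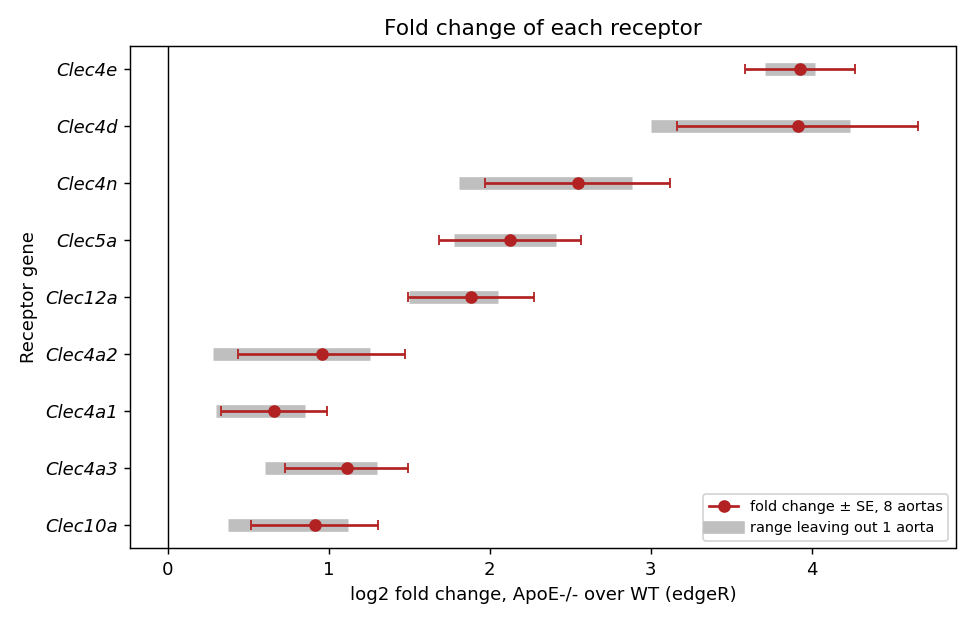
The log2 fold change of each receptor, ApoE-/- over WT, from edgeR on 8 aortas (points, with bars for the standard error), and the range of that value when each aorta was left out in turn (grey). Clec4e has a narrow grey band from 3.71 to 4.02, whereas the bands of Clec4a1 (0.30 to 0.85) and Clec4a2 (0.28 to 1.26) begin close to 0.

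The promoters of 4 receptors are shown to compare the genes at the ends of the range of fold changes, Clec4e and Clec4d against Clec4a1, with Clec12a at the median. Each sequence holds the 250 bases before the RefSeq start site, 5′ to 3′ on the strand of the gene, from GRCm38.p6. Capitals mark matches, on either strand, to GAGGAA (the core bound by PU.1, the product of Spi1), to TTGCNNAA (C/EBP) and to TGANTCA (AP-1). No matches overlapped. The windows are chr6:123289872-123290121 on the minus strand for Clec4e, and on the plus strand chr6:123261857-123262106 for Clec4d, chr6:122921598-122921847 for Clec4a1 and chr6:129349994-129350243 for Clec12a.
Clec4e: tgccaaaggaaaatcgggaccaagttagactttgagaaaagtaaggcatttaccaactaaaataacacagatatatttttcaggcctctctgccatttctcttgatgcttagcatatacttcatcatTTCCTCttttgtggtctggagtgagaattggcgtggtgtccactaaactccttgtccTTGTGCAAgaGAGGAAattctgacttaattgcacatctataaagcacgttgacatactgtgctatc
Clec4d: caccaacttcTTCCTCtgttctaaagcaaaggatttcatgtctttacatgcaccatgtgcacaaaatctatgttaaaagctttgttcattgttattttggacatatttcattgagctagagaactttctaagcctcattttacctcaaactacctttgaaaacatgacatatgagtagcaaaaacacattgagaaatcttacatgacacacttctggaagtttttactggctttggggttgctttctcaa
Clec4a1: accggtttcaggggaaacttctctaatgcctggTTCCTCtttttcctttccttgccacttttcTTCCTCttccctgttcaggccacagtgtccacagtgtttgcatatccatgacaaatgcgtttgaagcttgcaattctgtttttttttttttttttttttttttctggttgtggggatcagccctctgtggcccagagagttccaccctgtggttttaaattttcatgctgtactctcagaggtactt
Clec12a: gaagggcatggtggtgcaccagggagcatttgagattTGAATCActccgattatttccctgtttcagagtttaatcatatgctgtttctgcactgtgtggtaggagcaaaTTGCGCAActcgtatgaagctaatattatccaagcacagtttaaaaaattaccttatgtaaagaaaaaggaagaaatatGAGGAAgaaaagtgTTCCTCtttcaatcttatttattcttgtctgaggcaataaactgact
The Clec4e window held 2 PU.1 matches, at -123 to -118 and -56 to -51 from the start, with a C/EBP match, TTGTGCAA, at -66 to -59 just before the latter. The Clec4d window held 1 PU.1 match, at -240 to -235, and the Clec4a1 window 2, at -217 to -212 and -187 to -182. Clec12a was the only one of the 4 with all 3 motifs, with PU.1 at -61 to -56 and -47 to -42, C/EBP (TTGCGCAA) at -140 to -133 and AP-1 at -213 to -207. This RefSeq start lies 7553 bases inside the GENCODE gene. Of all 32851 promoter windows of this length, 23.3% held the PU.1 letters, 9.56% the C/EBP letters and 6.75% the AP-1 letters. A PU.1 match is thus found both in receptors with a high and in one with a low fold change, and it describes letters only. Promoters of 7 of the 9 receptors were matched, the others being those of Clec5a, with 2 PU.1 matches, of Clec4a2, with 0, and of Clec4a3, with 0 or 1 depending on the start site. The RefSeq start used for Clec4a2 lies 16262 bases inside the GENCODE gene.

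Levels can be compared between receptors only per length of the transcript, taken as the combined exon length. Per kilobase, the means in WT aortas ran from Clec10a (2.93 CPM per kb) over Clec4a1 (1.97), Clec4a3 (1.65), Clec4a2 (0.579), Clec4n (0.437), Clec12a (0.371), Clec5a (0.233) and Clec4d (0.138) to Clec4e (0.0170). Of the 8 pairs of neighbours in this order, 5 overlapped over the aortas, and the steps from Clec4a3 to Clec4a2, from Clec5a to Clec4d and from Clec4d to Clec4e did not. In ApoE-/- aortas the means were 5.52 for Clec10a, 3.56 for Clec4a3, 3.11 for Clec4a1, 2.59 for Clec4n, 2.12 for Clec4d, 1.37 for Clec12a, 1.13 for Clec4a2, 1.02 for Clec5a and 0.277 for Clec4e, and all 8 pairs of neighbours overlapped. Clec10a was thus the most abundant receptor transcript and Clec4e the least in both genotypes, and Clec4d stood next to last in WT but in the middle in ApoE-/- aortas. Clec4e, with the highest fold change, made up 1.51% of the summed level per kilobase in ApoE-/- aortas and 0.205% in WT. Clec4d made up 8.96% and 1.74%, and Clec4n 11.8% and 5.11%. The shares of Clec4a1 (16.1% and 23.4%) and Clec10a (26.8% and 35.4%) were lower in every ApoE-/- aorta than in any WT aorta.

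The receptors were then set against the macrophage markers of the same aorta, a description that was added after the levels had been seen. Of the 15 macrophage markers tested, 14 did not overlap between genotypes and were higher in ApoE-/- aortas, 2 passed the threshold (Fcgr1 and Mpeg1), none was at 0, and the median log2 fold change was 1.66. Their summed level was 634 to 2750 CPM in ApoE-/- and 434 to 530 CPM in WT aortas. Per 1000 CPM of the geometric mean of these markers, Clec4e was at 29.2 CPM in ApoE-/- aortas (22.3 to 41.5) and 5.47 CPM in WT aortas (4.37 to 6.13), a ratio of means of 5.35. Clec4d was at 55.8 (30.7 to 93.3) and 14.8 (7.87 to 18.4), a ratio of 3.78. These 2 receptors were the ones that stayed higher in every ApoE-/- aorta, as did 0.298% of all genes tested after the same division. Clec4a1 was at 98.4 (81.5 to 127) in ApoE-/- and 198.6 (179 to 241) in WT aortas, and Clec10a at 314.7 (171 to 399) and 558.4 (444 to 621). Both were lower in every ApoE-/- aorta, as were 75.0% of all genes, most of which are not macrophage genes, and nothing is read from that share. The other 5 receptors overlapped on this scale, with ratios from 0.561 for Clec4a2 to 1.68 for Clec4n.

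The outcome of this division depended on the marker. With Csf1r, the receptor that macrophages need for survival, as the only denominator, 4 receptors were higher without overlap (Clec4e, Clec4d, Clec4n and Clec12a) and 0 lower, beside 1.00% and 26.0% of all genes. With Adgre1 (F4/80) alone, Clec4e, Clec4d and Clec4n were higher and Clec4a1 lower, beside 0.637% and 55.1% of all genes. With Cd68 alone, Clec4e and Clec4d were higher and Clec4a1, Clec4a2 and Clec10a lower, beside 0.159% and 72.8% of all genes. Clec4e and Clec4d were higher than WT under each of these denominators. With the 15 markers but without ApoE-/- replicate 4, Clec4e and Clec4d were higher and Clec4a1, Clec4a2 and Clec10a lower, beside 0.365% and 75.0% of all genes. As the receptors were selected on these libraries, nothing is read from these shares. Whether Clec4n, Clec12a, Clec4a1, Clec4a2 and Clec10a overlapped between genotypes changed with the denominator.

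**Figure D3:**
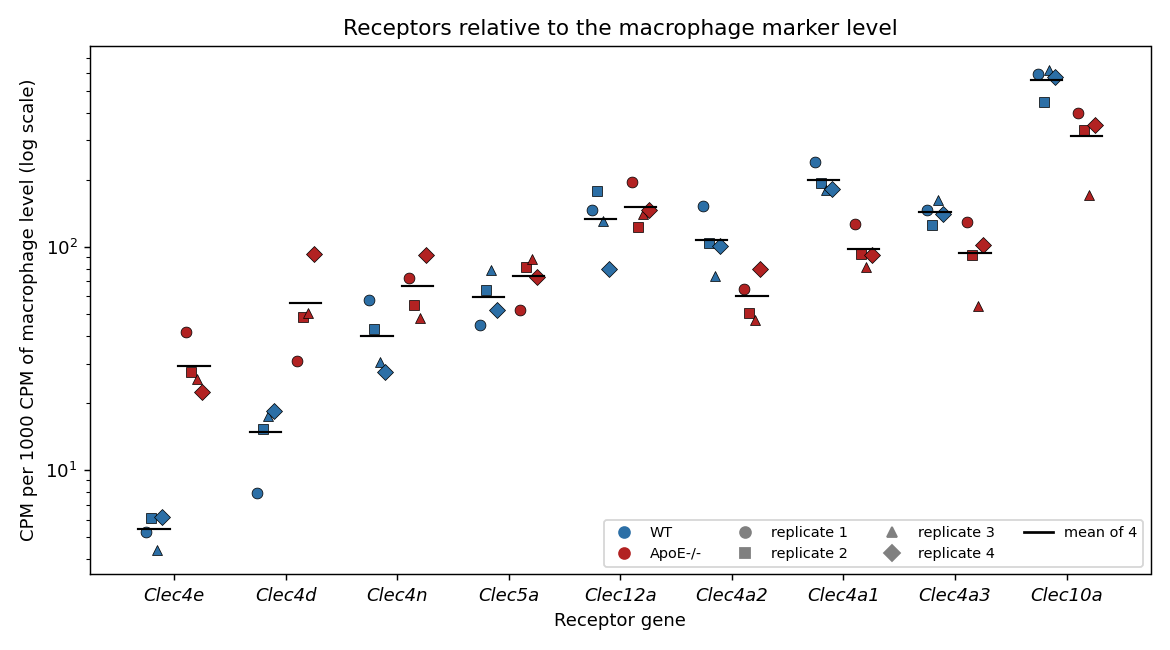
Each receptor's level divided by the geometric mean of 15 macrophage markers in the same aorta, in CPM per 1000 CPM on a log axis, with symbols as in the plot of receptor levels. Clec4e and Clec4d are higher in every ApoE-/- aorta (red) than in any WT aorta (blue), and Clec4a1 and Clec10a are lower in every one.

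Markers of other leukocytes that carry these receptors were examined in the same way. Of 12 neutrophil markers, none was at 0 in a whole genotype, and 3, S100a9, Csf3r and Elane, passed the filter on low counts. These 3 summed to 6.91 to 14.1 CPM in ApoE-/- and 2.55 to 3.67 CPM in WT aortas, led by Csf3r (means of 6.59 and 1.67 CPM). Csf3r, the receptor for granulocyte colony-stimulating factor, was the only one past the threshold and was higher in every ApoE-/- aorta. S100a9, with 193 read pairs over the ApoE-/- and 35 over the WT aortas, S100a8 (121 and 23) and Mmp8 (71 and 6) were also higher in every ApoE-/- aorta. Elane (75 and 90), Ltf (22 and 27) and Camp (7 and 7) were not. The defining neutrophil gene Ly6g had 2 read pairs over all ApoE-/- aortas and 1 over all WT aortas, and Mpo had 3 and 1. Monocyte markers summed to 372 to 745 CPM in ApoE-/- and 392 to 624 CPM in WT aortas. Ace (means of 390.2 and 232.3 CPM) and Nr4a1 (-0.75 on the log2 scale) made up most of this sum. It thus says little about the other markers. Of the 7 tested, 3 were higher in every ApoE-/- aorta, namely Ccr2, Ms4a4c and Spn, and the median log2 fold change was 1.06. Of the 10 markers of resident macrophages 1, Ccl8, did not overlap between genotypes, and their median log2 fold change was 0.35. Dendritic cell markers summed to 103 to 131 CPM in ApoE-/- and 87.3 to 106 CPM in WT aortas, and 1 of the 10 tested, Itgax, passed the threshold. Zbtb46, a dendritic cell factor that endothelium also expresses, was lower in every ApoE-/- aorta, at 50.3 against 67.1 CPM, and the median over the 10 was 0.70 on the log2 scale. Foam cell markers had a median of 2.51 over 11 genes, with Trem2 and Mmp12 past the threshold, while Cd36 (-0.69) and Lpl (-0.52), the most abundant of the list, had lower means in ApoE-/- aortas. None of the calls in these marker lists, or among the macrophage markers above, held without ApoE-/- replicate 3, WT replicate 2 or WT replicate 4. In those fits edgeR called 0 of all genes. The part of any of these cells in the receptor levels was not tested.

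On chromosome 6, the genes of 6 receptors lie side by side in 368 kb, from 122921848 to 123289870, in the order Clec4a1, Clec4a3, Clec4a2, Clec4n, Clec4d and Clec4e. Clec4n, Clec4d and Clec4e, the genes coupled to Fcer1g, occupy the distal end of this cluster and had log2 fold changes of 2.55, 3.91 and 3.93. The DCIR family genes at the proximal end had values of 0.66, 1.11 and 0.95. Clec4a4 and Clec4b1 lie between Clec4a3 and Clec4a2, and Clec4b2 lies between Clec4a2 and Clec4n. These family members were all under the filter on low counts and not tested. Clec4a4 had 14 read pairs over the ApoE-/- and 3 over the WT aortas, and Clec4b2 had 1 and 2. Clec4b1 had 76 and 26, with means of 0.813 and 0.307 CPM and no overlap between genotypes. No exon of an analysed receptor overlapped that of another gene with counts, so their reads are not shared by position.

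**Figure D4:**
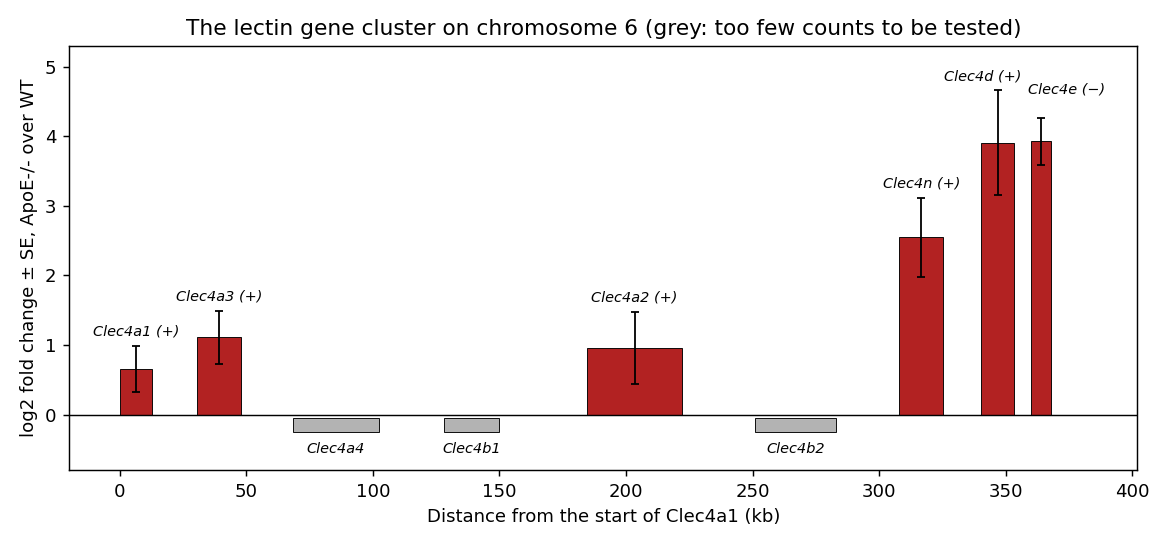
Fold changes in the lectin gene cluster of chromosome 6, with the distance from the start of Clec4a1 in kilobases on the x axis and the log2 fold change, ApoE-/- over WT, with its standard error on the y axis. Box widths show gene lengths, signs in brackets the strand, and grey boxes below 0 are genes with too few counts to be tested, which have no value; the 3 highest bars stand together at the distal end.

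Likeness between genes was measured as the root-mean-square difference over the 8 aortas between log2 CPM values centred on each gene's own mean, so that 0 would be an identical pattern. Clec4a3 and Clec10a were the closest pair of receptors (0.135), although they lie on different chromosomes. Clec4a1 and Clec4a2 were nearest to each other (0.266), as were Clec4n and Clec12a (0.374). Clec5a was nearest to Clec12a (0.471), Clec4d to Clec4e (0.640) and Clec4e to Clec4n (0.613). The farthest pair was Clec4d and Clec4a1 (1.38). To the median pattern of the 9 receptors, the nearest other genes were Cd300ld (0.118), Rnf128 (0.120), Spi1 (0.138), Myo1f and Nckap1l (both 0.157), Pirb (0.165), Itgb2 (0.167), C1qa (0.170), Cybb (0.176) and Cd53 (0.186). Spi1 encodes PU.1, the transcription factor whose letters were marked in the promoters above, Itgb2 the common chain of the leukocyte integrins and Cybb the catalytic chain of the phagocyte NADPH oxidase. These values share the libraries and their macrophage content and are a description of 8 aortas.

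The adaptor chains had higher means in ApoE-/- aortas, with 0 of the 3 past the threshold in edgeR, 3 at an unadjusted p under 0.05 and 2 called by DESeq2. Over all 15077 genes tested, 1713 had an unadjusted edgeR p under 0.05. Fcer1g, the partner of Mincle, MCL and Dectin-2, was at 16.3 ± 7.69 CPM in ApoE-/- and 5.61 ± 1.14 CPM in WT aortas (SD, n = 4 each), or 1.53 on the log2 scale (SE 0.33, adjusted p = 0.0853 in edgeR). Tyrobp, the partner of Clec5a, was at 29.6 ± 18.8 and 7.23 ± 1.21 CPM, or 2.03 on the log2 scale (SE 0.42, adjusted p = 0.0796 in edgeR). Hcst was at 0.870 and 0.362 CPM, or 1.25 on the log2 scale (SE 0.47, adjusted p = 0.343 in edgeR). All 3 were higher in every ApoE-/- aorta than in any WT aorta.

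In the signalling chain below the adaptors, 2 of 16 genes passed the threshold and both were higher in ApoE-/- aortas. Fgr, a Src family kinase of myeloid cells, rose from 1.24 to 8.63 CPM (2.79 on the log2 scale, SE 0.35, edgeR adjusted p = 0.0355). Vav1, an exchange factor downstream of Syk, rose from 3.78 to 14.5 CPM (1.94, SE 0.30, edgeR adjusted p = 0.0462). Syk itself was at 46.9 CPM in ApoE-/- and 22.5 CPM in WT aortas (1.06, SE 0.24, edgeR adjusted p = 0.103), and Card9 at 5.28 and 2.23 CPM (1.24, SE 0.29, edgeR adjusted p = 0.106). The adaptor Lcp2 had a log2 fold change of 1.31 (edgeR adjusted p = 0.0652). Over the 16, the median was 0.80 and 8 did not overlap between genotypes. Without any 1 aorta other than ApoE-/- replicate 1, and with the replicate number as a block, edgeR called 0 genes of this chain. These fits also called only 0% to 0.112% of all genes. Of the 4 inhibitory phosphatases, 0 passed the threshold in edgeR and DESeq2 called 1. An unadjusted edgeR p under 0.05 was reached by 2, beside 1713 of all 15077 genes tested. Ptpn6 (SHP-1), expressed mainly in blood cells, was at 12.1 and 4.46 CPM (1.43, SE 0.34, edgeR adjusted p = 0.109), while the widely expressed Ptpn11 had a log2 value of 0.09 (edgeR adjusted p = 0.833). Inpp5d was at 0.70 (edgeR adjusted p = 0.279) and Inppl1 at 0.06 (edgeR adjusted p = 0.916).

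Of the 18 genes listed as responses to these receptors, 12 were tested and 3 passed the threshold, all higher in ApoE-/- aortas. Ccl2, the main attractant of monocytes, rose from 1.31 to 5.84 CPM (2.15, SE 0.25, edgeR adjusted p = 0.0355). Il6, a cytokine of the acute phase, rose from 0.153 to 4.72 CPM (4.87, SE 0.71, edgeR adjusted p = 0.0396), and Cxcl2, a neutrophil attractant, from 0.170 to 0.825 CPM (2.24, SE 0.34, edgeR adjusted p = 0.0434). The sensor Nlrp3 (1.85, edgeR adjusted p = 0.0634), Cxcl1 (1.67, edgeR adjusted p = 0.0683), Il1b (1.75, edgeR adjusted p = 0.0753) and Tnf (1.47, edgeR adjusted p = 0.124) did not pass. As in the signalling chain, no response gene was called by edgeR without any 1 aorta other than ApoE-/- replicate 1 or with the block. Those fits also called only 0% to 0.112% of all genes. These cytokines are also made by vessel wall cells and under other signals. Of 10 transcription factors of myeloid cells, 0 passed in edgeR and DESeq2 called 4. An unadjusted edgeR p under 0.05 was reached by 4, 3 of these higher, beside 1713 of all 15077 genes tested. Spi1 was at 10.8 and 3.58 CPM (1.59, SE 0.32, edgeR adjusted p = 0.0705), Irf8 had a log2 fold change of 1.10 (edgeR adjusted p = 0.0526), Irf5 of 1.18 (edgeR adjusted p = 0.0870) and Irf4 of -1.25 (SE 0.40, edgeR adjusted p = 0.235).

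Other C-type lectins of leukocytes had a median log2 fold change of 0.70 over 21 genes tested of 26 listed. Cd72, an inhibitory lectin of B cells and macrophages, was the only one past the threshold and rose from 1.42 ± 0.245 to 8.50 ± 3.85 CPM (SD, n = 4 each), or by 2.57 on the log2 scale (SE 0.37, adjusted p = 0.0396 in edgeR). edgeR called 1 gene of this list without ApoE-/- replicate 1 and 0 without any other single aorta or with the block. Of all genes, the first of these fits called 3.91% and the others 0% to 0.112%. Klrb1b (1.85, edgeR adjusted p = 0.0787) and Cd69 (1.05, edgeR adjusted p = 0.269) were higher in every ApoE-/- aorta without passing. Clec9a, a receptor of cross-presenting dendritic cells for exposed actin, was lower in every ApoE-/- aorta, at 9.81 against 12.7 CPM (-0.37, edgeR adjusted p = 0.207). Among 13 C-type lectins of the vessel wall, 0 passed in edgeR and DESeq2 called 3, and the median was -0.06. An unadjusted edgeR p under 0.05 was reached by 6 of them, 4 of these higher, beside 1713 of all 15077 genes tested. E-selectin or Sele was at 8.84 and 3.05 CPM (1.53, SE 0.25, edgeR adjusted p = 0.0523) and P-selectin or Selp at 46.8 and 19.0 CPM (1.30, edgeR adjusted p = 0.0684), both adhesion molecules of activated endothelium. Endothelial Clec1a was at 27.9 and 39.3 CPM (-0.50, SE 0.09, edgeR adjusted p = 0.0608), and Cd248 had a log2 fold change of 0.81 (edgeR adjusted p = 0.262). The 8 endothelial markers summed to 1770 to 2630 CPM in ApoE-/- and 2550 to 3020 CPM in WT aortas, with a median log2 fold change of -0.36. Of these, 4 were lower in every ApoE-/- aorta, and their part in the values of the vessel wall lectins was not tested. The difference between these lists and the receptors was not tested.

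**Figure D5:**
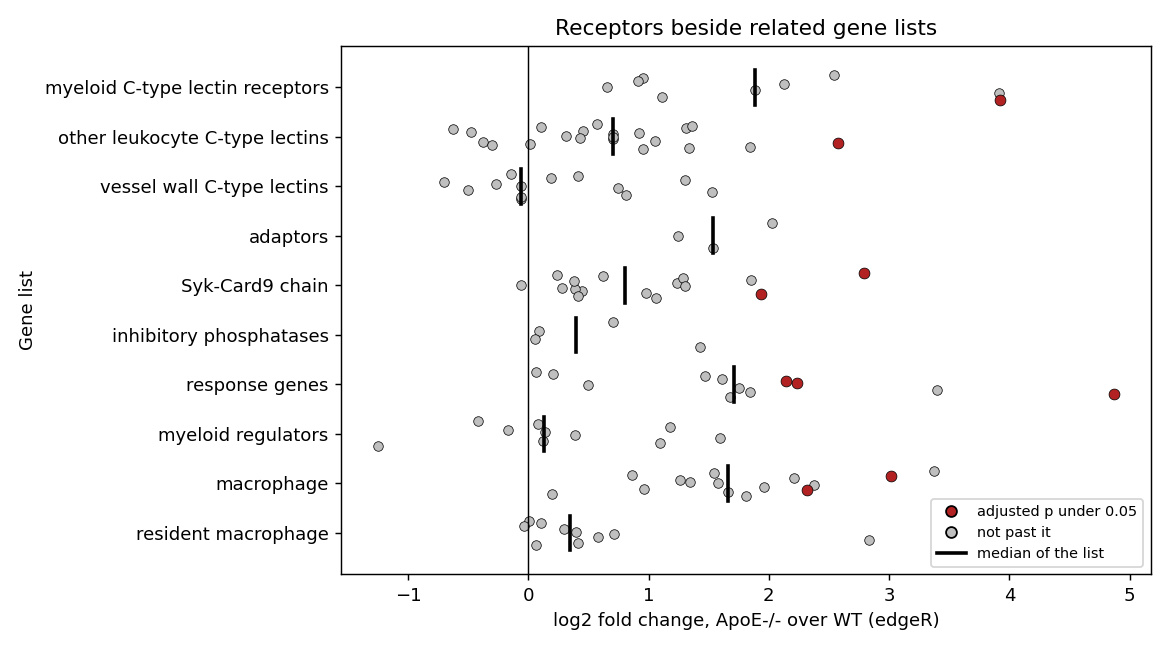
Each point is a gene and its log2 fold change, ApoE-/- over WT, from edgeR, grouped by gene list, with a black line at the median of the list and red for an adjusted p under 0.05. The receptors have a median of 1.88, close to the macrophage markers (1.66), the response genes (1.71) and the adaptors (1.53), while the vessel wall lectins lie around 0 (-0.06).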

How the data were processed

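RNA of whole aortas, 1 library per mouse, was made into stranded, ribosome-depleted total RNA libraries and sequenced as read pairs. The authors deposited, for each library, raw counts of read pairs per gene, without normalization. The submitters' processing notes name TopHat2, HTSeq and GRCm38 or mm10, and the versions are not given in the sources used here. Genotype and replicate number came from the sample labels. Genes were located in GENCODE annotation of GRCm38, and promoters in RefSeq GRCm38.p6.

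Counts were analysed with R 4.3.3 and edgeR 4.0.16 (filterByExpr, TMM, glmQLFit with robust estimation, glmQLFTest), with genotype as the only factor, Benjamini-Hochberg adjustment over 15077 genes and a two-sided threshold of 0.05. Standard errors were the fold change divided by the square root of F. The same test was also run on counts simulated from the means and dispersions of this fit, with an outcome that is not reported here. Alternatives were DESeq2 1.42.0, limma-voom (limma 3.58.1), other scaling factors and filters, a replicate block, and each aorta left out in turn. Division by macrophage markers was added later. The sum over a list covers only its genes that passed the filter on low counts. Named genes were all receptors, every gene past the threshold in each related list with up to 4 more of smallest p, the cluster neighbours, and the 10 genes most like the receptors. Of the list genes this rule names, 2 are not reported here. Other markers were chosen after their values were seen. The receptors and lists were chosen with earlier results of these data known. The p-values measure the spread between these mice.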

Additional observations from a re-analysis of the deposited data

Results flagged for a closer look

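In a group of 4 aortas, a value was singled out when its gap to the nearest other aorta exceeded Dixon's 95% critical share of the group's whole range. Of 130 groups examined, 17 were singled out. About 6.5 would be singled out by chance if the groups were independent and their values normally distributed. The values were CPM, not on a log scale, and the groups share aortas and genes, so no excess is read from this. ApoE-/- replicate 4 was the highest for Clec4n (gap 0.914 of the range), Clec4a1 (0.835), Clec4a2 (0.869) and the sum over the 9 receptors (0.870, at 92.4 CPM). It was also the highest for Hcst (0.933), Card9 (0.883), Ptpn6 (0.836), the sum of myeloid regulators (0.857) and the sum of foam cell markers (0.848). For the sum of cardiac muscle markers, which Ryr2 leads, it was the lowest (0.960, at 160 CPM). The most abundant genes were Cebpa in the regulator sum and Lpl and Cd36 in the foam cell sum. Adipocyte markers were also highest in this replicate among the ApoE-/- aortas (7830 CPM against 2090 to 5940 CPM). WT replicate 4, the highest WT aorta for adipocyte markers (9900 CPM), was also the highest for foam cell markers (7370 CPM). The part of adipocytes in these sums was not tested. In WT replicate 3, Tyrobp (0.869) was low. Clec4e (0.902) was also low there, at 0.0554 CPM, but this is 1 read pair against 2 in each other WT aorta, a difference that counting alone can give, and it does not single out the aorta. ApoE-/- replicate 3 was high for Sele (0.888) and for the sum of response genes (0.899, at 232 CPM). WT replicate 1 was high for Cd248 (0.848), WT replicate 2 low for the sum of inhibitory phosphatases (0.899), and ApoE-/- replicate 1 high for the sum of sympathetic neuron genes (0.931, at 3750 CPM).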

How the results depend on the processing

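Each of the 9 receptors kept the sign of its fold change under all 16 alternatives. DESeq2 called 721 genes instead of 70, 477 higher and 244 lower against 56 and 14, with 5 receptors, 3 other leukocyte lectins, 3 vessel wall lectins, 2 adaptors, 8 genes of the Syk-Card9 chain, 1 phosphatase, 9 response genes and 4 regulators. limma-voom called 29 genes, with 0 other leukocyte lectins and 1 gene of the Syk-Card9 chain, and upper-quartile factors also left 1 of the latter. Leaving out 1 aorta gave 0 to 593 genes, 0 to 5 receptors, 6 to 8 receptors without overlap (6.32% to 9.87% of all genes), 0 to 1 other leukocyte lectins, 0 to 6 vessel wall lectins, 0 to 2 adaptors, 0 to 7 genes of the Syk-Card9 chain, 0 to 1 phosphatases, 0 to 5 response genes and 0 to 3 regulators. The highest counts of genes and receptors came without ApoE-/- replicate 1, and Clec4e was not called without ApoE-/- replicate 3 or without any 1 of the WT aortas. Relative to Csf1r alone 4 receptors were higher and 0 lower (1.00% and 26.0% of all genes), and relative to Adgre1 alone 3 were higher and 1 lower (0.637% and 55.1%). The cause was not tested.

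The replicate numbers do not pair the aortas, which come from different mice: deviations of same-numbered aortas correlated at 0.059, -0.448, 0.316 and 0.162, and 1 of the 4 correlated best with its own number. With the number as a block, 2 genes, 0 receptors, 0 other leukocyte lectins, 0 genes of the Syk-Card9 chain and 0 response genes were called. Depth limits Clec4e most, with 1 or 2 read pairs in each WT aorta.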
